A study of Mus musculus with 25 samples.

Results

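The HCmel12 line was compared with the 4 other murine melanoma cell lines of the series, and the genes of interest were those whose transcript level in HCmel12 lay above, or below, that of each of the other lines. HCmel12 was represented by 5 of the 25 RNA-seq libraries, chosen by the cell line label, and D4M, RET, B16F10 luc2 and WT31 by 5 libraries each, which makes 20 libraries on the other side of the comparison. HCmel12 was derived from a primary melanoma of an HGF-CDK4(R24C) mouse, which carries an HGF transgene and an R24C allele of Cdk4. D4M came from a mouse with Tyr::CreER and BrafCA, WT31 from a Tyr::Nras Q61K; INK4a-/- mouse, and RET from a mouse with human RET under the metallothionein promoter (MT/RET). B16F10 luc2 is a B16F10 subline that carries a luciferase gene. Cells were harvested at a confluency of 50%. HCmel12 was grown in RPMI with 10% FCS and, as stated additions, with Hepes, β-mercaptoethanol, L-glutamine, sodium pyruvate and 1% nonessential amino acids. B16F10 luc2, WT31 and RET had RPMI with 10% FCS without these additions, and D4M was grown in Advanced DMEM/F-12 with 5% FCS and glutamine. Each genotype is represented by a single cell line and HCmel12 has a medium of its own, so that genotype, line and medium cannot be told apart. The replicates are cultures of a line, and p-values measure the spread between these cultures.

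The tumours from which HCmel12 derives combine an extracellular and an intracellular signal for growth. HGF binds the receptor tyrosine kinase MET and activates the ERK and PI3K pathways, and melanocytes that see HGF constantly proliferate and leave their niche. CDK4, together with CDK6 and the D-type cyclins, phosphorylates RB and opens the way from G1 to S phase. The CDK inhibitor p16INK4a, a product of Cdkn2a, holds CDK4 in check, and the R24C change makes CDK4 insensitive to it. The same locus encodes p19ARF, which stabilises p53 by binding MDM2, and p53 in turn induces Cdkn1a, the gene of the CDK inhibitor p21.

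The libraries held 24199083 to 25843286 counts (24204392 to 24525649 in HCmel12), and 15247 of 55385 genes had enough counts to be tested. Levels are given as CPM, counts scaled to an effective library total of 1000000 with edgeR's TMM factors, and are compared between lines and not between genes, since CPM are not scaled by transcript length. A difference is a log2 fold change from limma, and the least difference of a gene is the smallest of its 4 differences. Folds are ratios of mean CPM and can differ from the limma difference, in particular for genes at a few counts. A count of 3, which equals 0.111 to 0.138 CPM depending on the library, was taken as the floor for folds against lines without the transcript, and it covers counting error only. Within a line the correlation of log2 CPM between libraries was 0.9785 or higher across genes, and between HCmel12 and other lines it was 0.7228 to 0.8713. HCmel12 replicate 4 stood apart from the other HCmel12 libraries (0.9785 to 0.982, against 0.9858 to 0.988 among the other 4) and carried high levels of amino acid response genes, described further below, so that counts are given with and without it.

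In the comparison with D4M, 11054 genes differed (72.5% of those tested; limma, Benjamini-Hochberg adjusted p under 0.05), with 10253 against RET (67.2%), 10543 against B16F10 luc2 (69.1%) and 10732 against WT31 (70.4%). Genes that passed in all 4 comparisons with the same sign were far fewer. HCmel12 was above each other line for 1457 genes (9.56%) and below each for 1044 (6.85%). Without replicate 4 the counts were 1506 (9.88%) and 1044 (6.85%). Of the genes above, 1382 were called in both fits, of the genes below 941, and no gene changed direction. All 4 differences were at least 2-fold for 605 genes above (3.97%) and for 260 genes below (1.71%), and for 590 and 264 genes without replicate 4. Every HCmel12 library was above all 20 others for 1052 genes (6.9%) and below all of them for 635 (4.16%). At the 2-fold limit, Lipa (1.003) and Fam3c (1.006) were the last genes inside on the upper side and Gm8251 (0.9985) and Eps8l1 (0.9974) the first outside, and on the lower side these were D830050J10Rik (-1.001) and Lrriq3 (-1.005) and, outside, Rhob (-0.9977) and Fbln7 (-0.9962). Setting each other line against its 4 counterparts in the same way gave 3055 genes above and 2398 below for D4M, 2104 and 1687 for WT31, 1343 and 1041 for B16F10 luc2, and 1078 and 772 for RET.

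The genes that define the HCmel12 model were examined first. Hgf (chr5:16553495-16620152, plus strand, GRCm38) was at 84.0, 96.1, 103, 113 and 78.0 CPM in HCmel12 replicates 1 to 5, at 1.56 to 3.74 CPM in D4M, at 0 in RET and B16F10 luc2 and at most 0.038 CPM in WT31. The groups did not overlap, and the difference from D4M, the nearest line, was 5.21 (SE 0.178, limma adjusted p = 3.23e-19), with a ratio of mean CPM of 36.0. Whether the Hgf counts hold reads of the transgene was not settled here. Met, the HGF receptor, was at 1093, 943, 987, 1310 and 1037 CPM in HCmel12, at 81.0 to 133 CPM in D4M and RET, at 190 to 416 CPM in WT31 and at 1593 to 1816 CPM in B16F10 luc2. HCmel12 thus lay between B16F10 luc2 and the other lines and exceeded D4M, RET and WT31 by 3.15, 3.46 and 2.03 on the log2 scale, while it was 0.68 lower than B16F10 luc2 (SE 0.145, limma adjusted p = 0.000172). Met was therefore not among the genes above each line.

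Cdkn2a (chr4:89274471-89294653, minus strand), which encodes p16INK4a and p19ARF, gave 181, 205, 188, 219 and 221 CPM in HCmel12. It was at 2.65 to 3.23 CPM in WT31, the line from INK4a-/- mice, at most 0.128 CPM in D4M and at 0 in RET and B16F10 luc2. No library of the other lines came near HCmel12, and the difference from WT31 was 6.15 (SE 0.119, limma adjusted p = 1.19e-23), a ratio of 71.7. Cdk4 itself was even across the lines, with 585, 596, 595, 579 and 602 CPM in HCmel12 and 518 to 688 CPM in the other libraries, and none of its 4 differences passed the test (limma adjusted p = 0.302, 0.11, 0.203 and 0.0512 against D4M, RET, B16F10 luc2 and WT31). Cdk6, the close relative of Cdk4, was at 2.13, 1.68, 1.66, 1.29 and 2.21 CPM in HCmel12 against 25.5 to 104 CPM in the 20 other libraries, 16.7-fold below RET, the nearest line (difference -4.07, SE 0.234, limma adjusted p = 3.36e-14; -3.96 without replicate 4).

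Of the 35 tested genes on the list of the HGF-MET and CDK4-RB axis, 5 were above (14.3%, against 9.56% of all tested genes) and 6 below each line (17.1%, against 6.85%; 7 below without replicate 4). Above were Hgf, Cdkn2a, Hpn, the membrane protease hepsin (least difference 1.11), Plxnb1, a semaphorin receptor (0.70), and Cbl, a ubiquitin ligase of receptor tyrosine kinases (0.28). Below were Cdk6, Cdkn1a (-2.59), the D-type cyclin Ccnd2 (-2.10), E2f1, a transcription factor held by RB (-0.54), Mdm2 (-0.34) and the adaptor Grb2 (-0.12). Among 22 tested genes of ERK output, Myc (1.05) and the ERK phosphatase Dusp6 (0.58) were above and Epha2 (-1.99) was below. Myc was at 262, 377, 191, 267 and 201 CPM in HCmel12 and at 74.7 to 170 CPM in the other libraries, without overlap. The call of Dusp6 was lost with TPM values in place of counts.

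The genes altered in the other lines were read in HCmel12 as well. Braf (chr6:39603237-39725463) was at 68.5, 71.7, 71.9, 74.8 and 63.9 CPM in HCmel12, above all 20 other libraries (21.2 to 62.5 CPM), and the difference from RET was 0.31 (SE 0.0647, limma adjusted p = 0.00013). With TPM values in place of counts the call was lost. Its differences from D4M, RET, B16F10 luc2 and WT31 were 1.40, 0.31, 0.41 and 1.51. The medians of the 62 tested genes between 30 and 40 Mb of chromosome 6, where Braf lies, were similar, at 1.32, 0.11, 0.47 and 1.28. Of these genes, 19 were above each line (30.6%). The level of Braf is thus not particular to this gene within its region. Nras was at 132 to 162 CPM in HCmel12, 0.61 and 0.44 above RET and B16F10 luc2 and 0.18 below WT31, while against D4M it did not pass the test (limma adjusted p = 0.563). Mouse Ret had no count in any HCmel12 library, and the human transgene of the RET line is not part of the mouse reference.

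**Figure D1:**
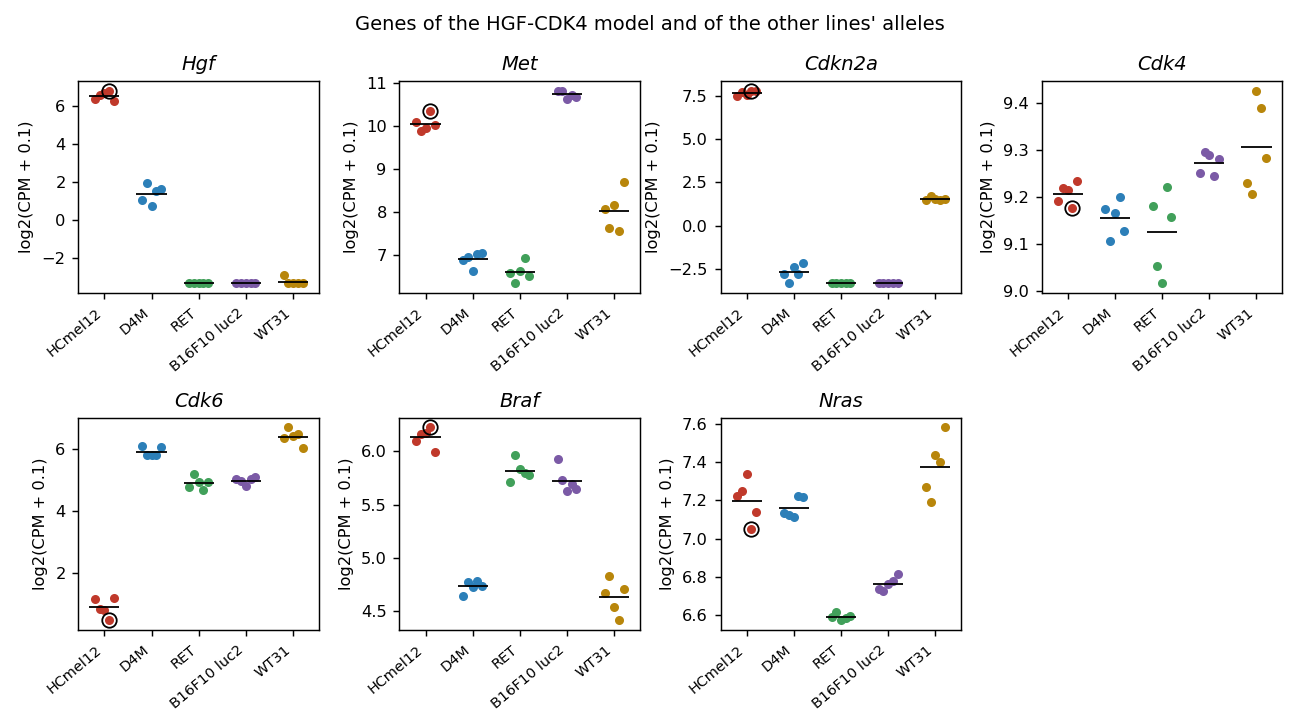
CPM on a log2 scale with 0.1 added (vertical axis) for Hgf, Met, Cdkn2a, Cdk4, Cdk6, Braf and Nras in the 5 lines (horizontal axis), 1 point per library, with a bar at the mean of the plotted values and a ring around HCmel12 replicate 4. Hgf and Cdkn2a stand high in HCmel12 and Cdk6 stands low, Cdk4 is level across lines, and Met is also high in B16F10 luc2.

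Many of the genes furthest above the other lines had 3 counts or fewer there, so that only a lower bound of the fold can be given: 42 of the 1457 genes had at most 3 counts in every other library. Xist, the RNA that coats the inactive X chromosome, was at 237, 174, 174, 252 and 205 CPM in HCmel12 and at most 0.124 CPM elsewhere, at least 1570-fold higher (1480-fold without replicate 4). Pcbd1, which encodes a dehydratase that recycles tetrahydrobiopterin, was at 27.5, 28.2, 28.6, 31.3 and 29.4 CPM and at least 218-fold higher. Neither transcript overlapped between HCmel12 and the other lines. Rab3c, which encodes a small GTPase of secretory vesicles, was at 43.0, 40.1, 52.4, 32.3 and 36.4 CPM against at most 0.135 CPM. Spdye4a, of the Speedy family of CDK activators, was at 10.9 to 12.9 CPM and had no count in the other 20 libraries (at least 89.7-fold), although 27.3% of its 31-base sequences also occur in Spdye4b, so that kallisto divides part of the reads between both.

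The 15 genes furthest above also held Kcnj10, Kcna6 and Grin2c. The inward rectifier potassium channel gene Kcnj10 was at 50.0, 44.2, 26.9, 41.4 and 51.6 CPM and at least 321-fold higher, the voltage-gated channel gene Kcna6 at 7.17 to 12.6 CPM and at least 74.1-fold higher. The NMDA receptor subunit gene Grin2c (5.10 to 17.04 CPM) was at least 68.4-fold higher, and at least 53.5-fold without replicate 4. No other-line library exceeded 0.194 CPM for any of these 3 genes. Necab2, which encodes a neuronal calcium-binding protein (at least 143-fold), Lrmp (at least 85.8-fold), Csrnp3 (at least 66.8-fold) and the zinc finger gene Zbtb16 (at least 27.9-fold) had the same pattern. Fabp3, a fatty acid binding protein gene, was at 76.7 to 101 CPM and 169-fold above WT31, with 37.3% of its 31-base sequences shared with Fabp3-ps1. Cxcl11, a chemokine gene induced by interferon, was at 22.3, 18.7, 22.6, 17.9 and 19.9 CPM and 112-fold above WT31 (difference 6.73, SE 0.348, limma adjusted p = 2.89e-15).

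On the lower side, 83 of the 1044 genes had at most 3 counts in every HCmel12 library. Suclg2, which encodes the GTP-forming subunit of succinyl-CoA ligase in the citric acid cycle, had no count in the 5 HCmel12 libraries and 54.0 to 169 CPM in the others, at least 520.0-fold lower; 20.6% of its 31-base sequences also occur in Gm15163. Crim1, which encodes a membrane protein that binds BMPs, was at 0, 0.04, 0, 0 and 0 CPM in HCmel12 and at 32.2 to 102 CPM elsewhere (at least 308-fold). Rras2, a RAS family GTPase gene, was at most 0.041 CPM in HCmel12 and 18.7 to 41.5 CPM elsewhere (at least 179-fold). These genes were thus at or near 0 in each HCmel12 culture and clearly transcribed in each other line.

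The receptor tyrosine phosphatase gene Ptprg was at least 298-fold lower and Ust, the gene of a sulfotransferase that modifies chondroitin and dermatan sulfate, was at most 0.04 CPM in HCmel12 and 12.2 to 35.03 CPM elsewhere. At a few counts in HCmel12, Ppp1r9a was 291-fold below D4M (without replicate 4 at most 3 counts remained, at least 194-fold), Gorab 144-fold below RET (229-fold without it) and Inka2 118-fold below RET. Morn4 was 85.3-fold and Dglucy, a mitochondrial gene of D-glutamate metabolism, 78.3-fold below WT31, the latter at least 49.3-fold without replicate 4. Carmil1, a regulator of actin capping protein (at least 39.1-fold), the zinc finger genes Zfp2 (at most 0.04 CPM against 1.16 to 6.73 CPM) and Zfp667 (at least 11.8-fold), the scaffold gene Iqgap2 (at least 16.4-fold) and the neuronal splicing factor gene Nova1 (at least 18.2-fold) completed the 15 genes furthest below. Among transcription factor genes of 275 tested by family, 24 were above (8.73%) and 16 below (5.82%), shares close to those of all tested genes (23 and 14 without replicate 4). Within this list, Meis1, a homeobox cofactor (at least 20.2-fold), and Maf (27.9-fold below WT31) were furthest below, and Pou3f1 furthest above. The zinc finger genes Zbtb16, Zfp2 and Zfp667, named above, lay further off in their direction and are left out of this ranking.

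**Figure D2:**
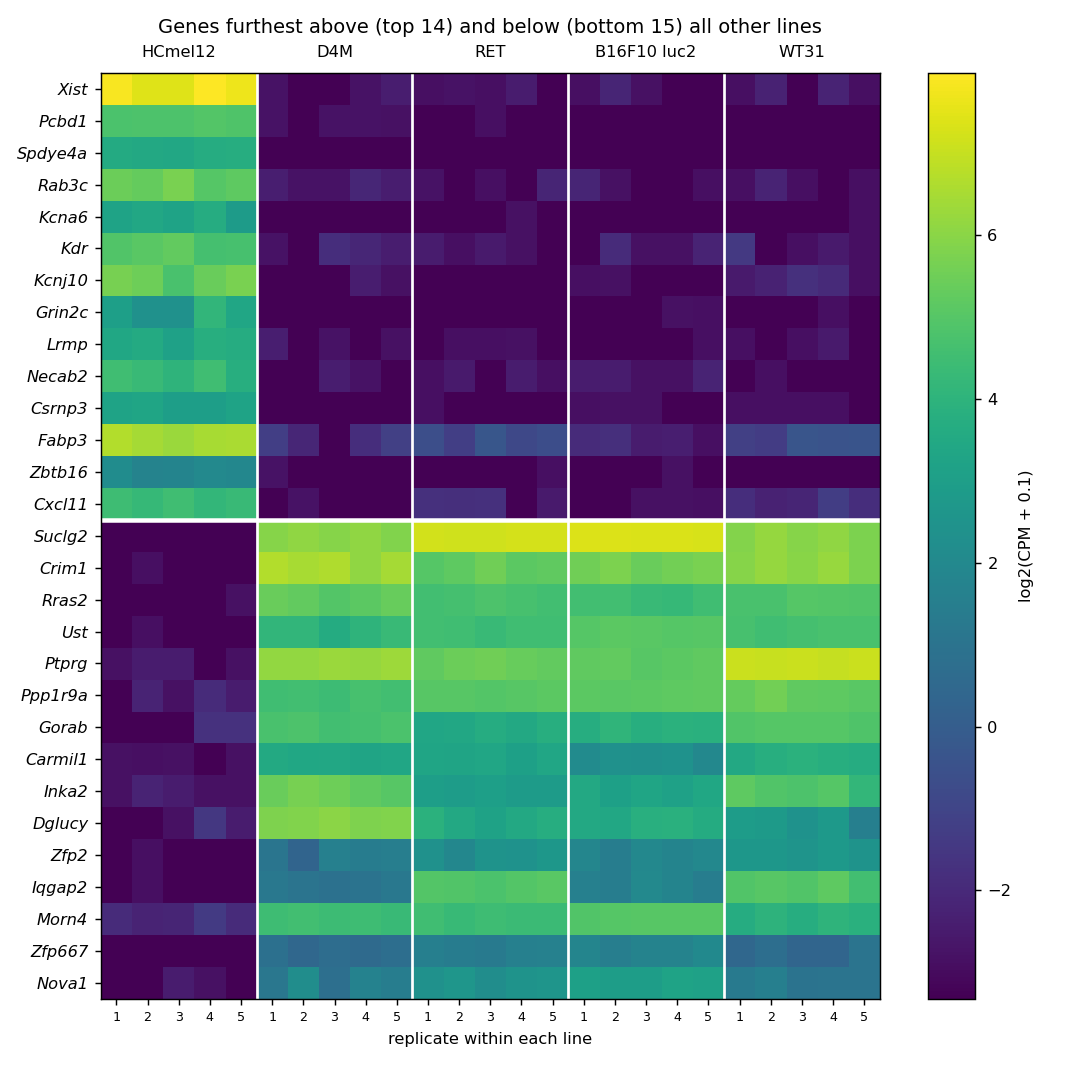
Heat map of log2(CPM + 0.1) by library (columns, 5 replicates of each line) for 14 of the 15 genes furthest above (upper rows) and the 15 furthest below each other line (lower rows). The upper rows are bright in the 5 HCmel12 columns and dark elsewhere, the lower rows the reverse, and replicate 4 has the same pattern as the other HCmel12 libraries.

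Of 41 tested angiogenic ligands and receptors, 10 were above each line (24.4%, against 9.56% of all tested genes; 9 without replicate 4) and 1 was below, Angptl2 (-0.93). Kdr, the gene of VEGF receptor 2, was at 30.4, 34.2, 38.9, 25.3 and 26.0 CPM in HCmel12 and at most 0.266 CPM in any other library, at least 265-fold higher (277-fold without replicate 4). Flt4, the gene of VEGF receptor 3, was at 16.5, 16.3, 19.9, 17 and 17.5 CPM and 27.5-fold above B16F10 luc2 (difference 4.79, SE 0.29, limma adjusted p = 8.51e-14). Neither receptor overlapped between HCmel12 and another line. Of 38 tested receptor tyrosine kinases, 4 were above (10.5%) and 3 below (7.89%): the growth factor receptor genes Fgfr2 (at least 4.26-fold above D4M) and Erbb2 (least difference 0.20) were above beside them, and Pdgfrb, Ephb6 (-2.29) and Epha2 were below. Among the ligands, Sema3g, a class 3 semaphorin, was at 48.2, 64.3, 58.3, 36.1 and 50.6 CPM and 38.6-fold above RET. Sema3d was at 12.2, 15.2, 17.02, 5.90 and 8.05 CPM, 4.04-fold above D4M, with the lowest value in replicate 4. Fgf13 (least difference 2.94), Egfl7 (1.86), Sema3e (1.26), Apln, the ligand of the apelin receptor (1.05), Vegfb (0.24) and Hgf made up the rest. The list's median differences were -1.38, 0.77, 1.04 and 0.75 against D4M, RET, B16F10 luc2 and WT31, where those of all tested genes were within 0.01 of 0. When only genes with at least 10 counts in every library were tested, 3 members remained above, since such a filter leaves out genes that the other lines lack. Over all genes, 914 were above with that filter. Members such as Kdr entered the test through HCmel12, where they are high. The share of 24.4% is thus a description, and an excess over all genes was not tested.

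Kdr is a defining gene of endothelium, and the other endothelial markers were read beside it. Their summed level in HCmel12 was 26.2 to 39.7 CPM and consisted almost entirely of Kdr. Cdh5 and Emcn had no count in any HCmel12 library, Pecam1 was at most 0.204 CPM, Tek and Tie1 at most 0.161 CPM, and Vwf was at 0.319 to 0.672 CPM. In a bulk sample fewer cells of a type and less RNA per cell cannot be told apart. The summed markers of leukocytes (2.42 to 4.20 CPM), fibroblasts (1.36 to 1.89 CPM) and keratinocytes (at most 0.242 CPM) were low in HCmel12 as well. Those of melanocytes were at 12030 to 17690 CPM, as against 14.1 to 69.6 CPM in D4M and 15170 to 30290 CPM in the 3 other lines, but Tyr, the gene of the rate-limiting pigment enzyme tyrosinase, was at only 8.595, 9.14, 8.32, 30.1 and 6.31 CPM in HCmel12 against 186 to 4490 CPM in those 3 lines.

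Most of the called p53 targets were lower in HCmel12. Of 29 tested members of the p53 target list, 12 were below (41.4%, against 6.85% of all tested genes) and 2 above, with the same counts without replicate 4, and 12 or 13 below under every alternative processing. Ccng1, which encodes cyclin G1, was at 33.8, 31.01, 33.8, 35.2 and 31.8 CPM in HCmel12 and at 188 to 568 CPM in the other libraries, 8.41-fold below WT31 (difference -3.04, SE 0.108, limma adjusted p = 1.43e-18). Cdkn1a was at 17.6, 31.6, 38.0, 34.3 and 39.95 CPM and at 178 to 412 CPM elsewhere, 5.81-fold below B16F10 luc2 (difference -2.59, SE 0.165, limma adjusted p = 2.11e-13). Both genes were lower in every HCmel12 library than in any of the 20 others.

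The stress gene Trp53inp1 was at 6.26, 3.43, 1.91, 15.9 and 4.56 CPM in HCmel12, highest in replicate 4, and at 23.2 to 67.3 CPM elsewhere, 3.99-fold below D4M (6.34-fold without replicate 4). Polk, the gene of a translesion polymerase, was at 7.39 to 10.5 CPM, 2.38-fold below RET. Also below were Zmat3 (-1.15), Ak1 (-1.06), Sesn2 (-1.02), Aen (-0.90), the death receptor gene Tnfrsf10b (-0.66), Gtse1 (-0.62), Ei24 (-0.46) and Mdm2 (-0.34). Plk2 (0.83) and Pmaip1, which encodes the BH3 protein NOXA (0.42), were above. Trp53 itself was not called in either direction. The list's median differences were -1.01, -1.18, -0.65 and -0.45 against D4M, RET, B16F10 luc2 and WT31. B16F10 luc2 is described in the study as carrying a Trp53 mutation, and the p53 state of HCmel12 was not measured here.

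**Figure D3:**
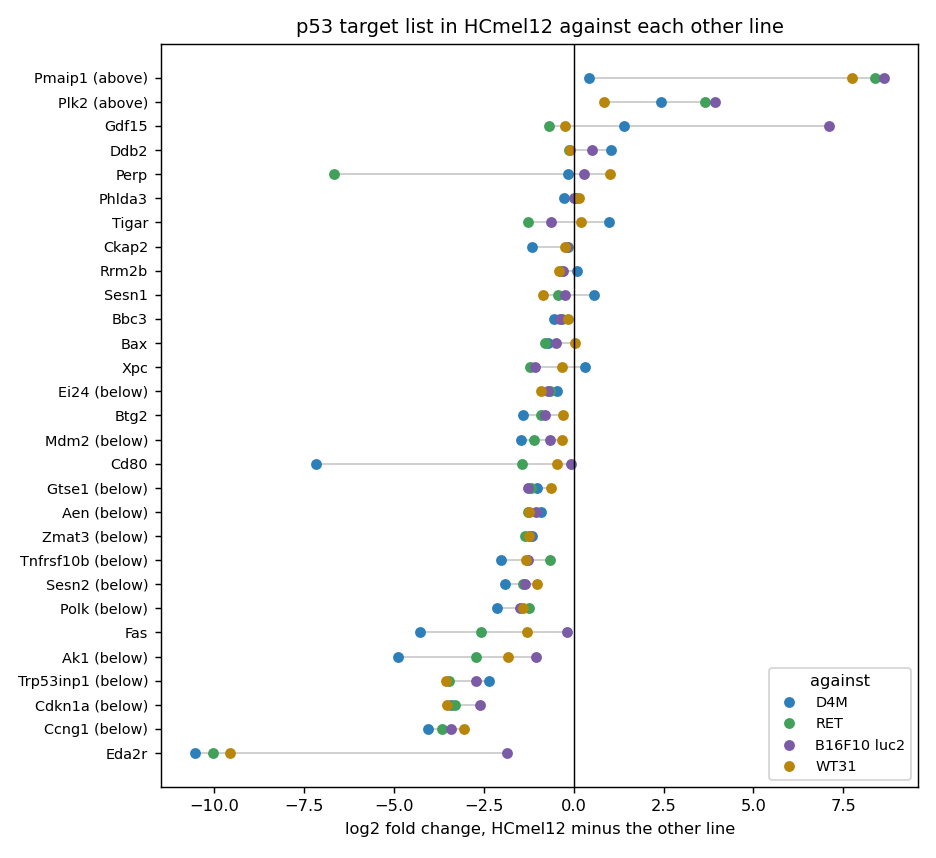
Log2 fold change of each tested p53 target, HCmel12 minus the other line (horizontal axis), with genes in rows and 1 symbol per other line. The symbols of Ccng1 and Cdkn1a lie left of -2 against all 4 lines, whereas those of Plk2 and Pmaip1 lie right of 0.

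For the lists that follow, the shares over all tested genes are 9.56% above and 6.85% below. Of 33 tested melanocyte genes, 2 were above (6.06%) and none below, and the list's median difference was 6.89 against D4M, where pigment genes are low, but -0.41, -0.75 and -1.02 against RET, B16F10 luc2 and WT31. Above were Cdh1 (E-cadherin), at 6.94, 4.70, 3.81, 15.2 and 5.65 CPM in HCmel12 and at most 1.56 CPM elsewhere, 6.59-fold above RET (4.79-fold without replicate 4), and Irf4, a regulator of tyrosinase, at 6.14, 5.66, 2.64, 12.9 and 3.21 CPM. The Irf4 values of HCmel12 overlapped those of WT31 (0.874 to 4.69 CPM), and both genes were highest in replicate 4. Among 33 neural crest and Schwann cell genes, 3 were above (9.09%) and 2 below (6.06%). Pou3f1 (OCT6), a factor of Schwann cell development, was at 123, 160, 113, 131 and 103 CPM against at most 2.44 CPM elsewhere, 82.4-fold above B16F10 luc2 (difference 6.33, SE 0.219, limma adjusted p = 1.08e-18).

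S100b, which is commonly used as a melanoma marker, was at 0.482, 0.319, 0.243, 1.62 and 0.854 CPM in HCmel12 and at 7.42 to 110 CPM in the other lines, 14.1-fold below D4M. Sox9 was at 0.122 to 1.17 CPM, 2.61-fold below WT31, whose lowest library (0.892 CPM) overlapped HCmel12 replicate 4. Summed Schwann cell markers in HCmel12 (350 to 442 CPM) lay between those of RET (114 to 159 CPM) and WT31 (514 to 662 CPM).

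Of 60 tested matrix genes, 2 were above (3.33%) and 5 below (8.33%), and of 46 proteases and inhibitors 4 (8.7%; 5 without replicate 4) and 6 (13%). Lama3, a chain of laminin-332, was at 7.26, 7.25, 10.5, 17.5 and 11.0 CPM and 46.9-fold above D4M, again highest in replicate 4. Adam12, a metalloprotease gene, was at 285, 352, 324, 251 and 290 CPM and 2.34-fold above WT31. Below were Timp1, an inhibitor of matrix metalloproteases, at 0.283 to 0.717 CPM against 3.40 to 717 CPM elsewhere (7.43-fold below RET), the matricellular genes Postn (9.64-fold below RET) and Ccn2 (7.59-fold below D4M), Eln (at least 3.46-fold below D4M), Col5a3 (least difference -3.39) and Col1a2 (-1.63). The calls of Eln and Pdgfrb were lost with log2(TPM + 1) and that of Col1a2 without a filter on low counts. Pdgfrb, a receptor of fibroblasts and pericytes, was at 0 in 4 HCmel12 libraries and at least 5.67-fold below WT31. Of 37 genes of mesenchymal transition 3 were above (8.11%) and 6 below (16.2%; 4 genes without replicate 4), and of 46 adhesion genes 3 were above (6.52%) and 1 below, Itgb4 (-0.63). The call of Itgb4 was lost in 11 of 37 alternatives, among them library size scaling, no filter, TPM values and leaving out HCmel12 replicate 4 or 5 or D4M replicate 2 or 3.

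Genes of developmental pathways were called in both directions. In the TGF-beta and BMP, Notch and Hox lists the shares were near those of all tested genes. In the Wnt list 7 of 37 tested genes were above (18.9%) and 2 below (5.41%; 1 gene without replicate 4), led by the ligand gene Wnt6, at 10.8, 8.73, 7.70, 8.28 and 11.7 CPM in HCmel12 and 6.88-fold above RET, and by the R-spondin receptor gene Lgr5, 3.08-fold above WT31, while Wnt9a was at least 2.95-fold below WT31. In the TGF-beta and BMP list 5 of 47 were above and 5 below (10.6% each; 4 below without replicate 4): Bmp4 (2.76-fold above WT31) and the BMP antagonist gene Nog (least difference 2.09; call lost with DESeq2's Wald test) were above, and the inhibitory Smad7 (-0.85) below. Of 24 Notch genes 2 were above (8.33%) and 1 below (4.17%). The ligand gene Jag2 was 3.02-fold above RET, and Dll3 was above with a least difference of 0.72. The call of Dll3 was lost in 5 of 37 alternatives. Jag1, at 1.37 to 2.23 CPM against 10.7 to 111 CPM elsewhere, was 7.23-fold below RET. Of 57 guidance genes 8 were above (14%) and 1 below (1.75%; 2 genes without replicate 4), with Efna1, an ephrin ligand gene, 4.23-fold above D4M and Sema6d below (least difference -1.69). Hox genes gave 2 above and 1 below of 25, with Hoxd13 at 36.7 to 45.4 CPM and 3.67-fold above B16F10 luc2, and imprinted genes 3 above (2 without replicate 4) and 1 below of 25. Of 34 chemokine and cytokine genes 5 were above (14.7%) and none below; beside Cxcl11 these were Il16 (2.85-fold above WT31), the receptor genes Lifr (2.10-fold above D4M) and Osmr (1.76-fold above B16F10 luc2), and Ccl28 (0.69). Interferon response genes (58 tested) gave 1 above, Irf1 (0.44), and 1 below, Samd9l (-1.49), and MHC and antigen processing genes (29 tested) gave 2 above, Psmb10 (0.58) and Psme1 (0.33).

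Of 205 solute carrier genes 25 were above (12.2%) and 17 below (8.29%), 10 and 6 of them at least 2-fold. The glutamate transporter gene Slc1a3 was at 28.9, 25.4, 20.7, 29.1 and 23.5 CPM and 25.4-fold above D4M, and the insulin-regulated glucose transporter gene Slc2a4 at 24.7 to 38.6 CPM and 9.87-fold above B16F10 luc2. Slc25a13, the mitochondrial aspartate-glutamate carrier citrin, was at 0.281, 0.159, 0.324, 0.283 and 0.244 CPM and 29.4-fold below WT31. Cholesterol and fatty acid synthesis genes gave 6 above of 33 (18.2%; 5 genes without replicate 4), all with least differences under 0.5 on the log2 scale, and oxidative phosphorylation genes 7 above (13%; 8 genes without replicate 4) and 1 below (1.85%) of 54, all with least differences under 0.4 in size. Glutathione and oxidative defence genes gave 1 above and 2 below of 48 (4 and 2 without replicate 4), and endoplasmic reticulum chaperone genes 2 above and none below of 20 (4 above without replicate 4). Glycolysis and hypoxia genes gave 1 in each direction of 36. Of 42 genes of DNA replication and mitosis only Mcm7, a subunit of the replicative helicase, was above, at 927, 798, 750, 666 and 735 CPM and 3.30-fold above RET; 26.8% of its 31-base sequences are shared with Gm5487.

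Genes above each line lay close together in some stretches of the genome. They made up 22.7% of the tested genes of chromosome 1, 19.4% of chromosome 5 and 15.1% of chromosome X, and the genes below 14.1% of chromosome 12 and 12.7% of chromosome 10. In 235 windows of 10 Mb with at least 20 tested genes, the median share above was 7.14% and the median share below 6.12%. The share above exceeded 40% in 6 windows, which held 416 tested genes (2.73%) but 243 of the genes above (16.7%), 137 of them at least 2-fold. Both windows between 120 and 140 Mb of chromosome 1 were among them (14 of 27 genes, 51.9%, and 54 of 85, 63.5%), as were both between 130 and 150 Mb of chromosome 5 (64 of 135, 47.4%, and 74 of 106, 69.8%) and both between 10 and 30 Mb of chromosome 6 (17 of 25, 68%, and 20 of 38, 52.6%). The shares were 48.1%, 58.8%, 46.7%, 69.8%, 60% and 50% without replicate 4.

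Within the window of 140 to 150 Mb of chromosome 5, the median difference of all tested genes was 1.30, 1.30, 1.25 and 1.25 against D4M, RET, B16F10 luc2 and WT31, and in that of 130 to 140 Mb of chromosome 1 it was 1.28, 1.33, 1.38 and 1.27. Other windows differed more between lines, with medians of 1.59, 0.49, 0.42 and 1.44 in that of 20 to 30 Mb of chromosome 6 and 0.90, 0.50, 0.24 and 0.75 in that of 120 to 130 Mb of chromosome 1. The longest run of neighbouring protein-coding genes above each line held 28 genes between 143172186 and 145148078 of chromosome 5, 23 of them at least 2-fold, with Spdye4a, the GTPase gene Rac1, the mismatch repair gene Pms2, Trrap and the ubiquitin ligase gene Smurf1 among them. Mcm7 lies in a run of 11 genes of the same chromosome. The chromosome 6 windows hold Met (chr6:17463800-17573980), which itself was above only 3 lines. The share below exceeded 40% in a single window, 40 to 50 Mb of chromosome 10 (20 of 43 genes, 46.5%, with and without replicate 4), with median differences of -0.61, -0.96, -1.10 and -0.66. DNA copy number was not measured in these libraries, and its part in the result was not tested.

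**Figure D4:**
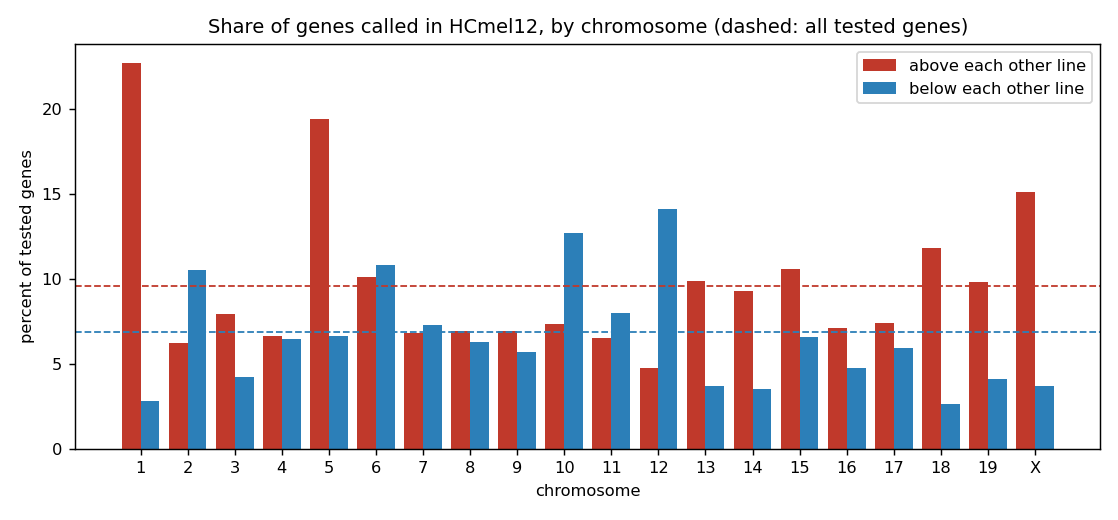
Percent of the tested genes of each chromosome (horizontal axis) that were above or below each of the 4 other lines, with dashed lines at 9.56% and 6.85%, the shares over all tested genes. Chromosomes 1 and 5 have the highest bars above, at 22.7% and 19.4%, and chromosome 12 has the highest bar below, at 14.1%.

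Replicate 4 of HCmel12 differed from the other 4 cultures of the line in the genes controlled by ATF4, a transcription factor that is translated when amino acids are short or the endoplasmic reticulum is under stress and that induces amino acid transporters, tRNA synthetases and the genes Trib3, Ddit3 and Chac1. The motif TGATGNAA (its letters, sought on both strands, N being any base) is a core of the ATF4 site that ATF4 forms with C/EBP proteins. Promoters of 300 bases, 250 before and 50 after the start, were taken from RefSeq (GRCm38.p6). The motif occurred in 2.18% of the promoters of the 10987 tested genes with an entry, in 14 of 43 promoters of the ATF4 list (32.6%) and in 17 of 220 promoters of genes at least 2-fold higher in replicate 4 (7.73%). These last genes were chosen by their level in replicate 4 and include members of the ATF4 list. Their share is therefore a description, and no conclusion is drawn from it. It occurred in 2.66% of the promoters of genes above and 1.95% of those of genes below each line. Of the 10 list members furthest off in replicate 4, 7 had the motif in this window, and Ddit3, Ddit4 and Gpt2 had no match there. The promoters of 4 of those 7 are shown with the motif, as it reads on the gene's strand, in capitals. They lie at chr7:126625421-126625720 (minus strand) for Nupr1, chr2:152344011-152344310 (minus) for Trib3, chr2:119350992-119351291 (plus) for Chac1 and chr3:50443564-50443863 (minus) for Slc7a11, where the motif occurs on both strands.
Nupr1: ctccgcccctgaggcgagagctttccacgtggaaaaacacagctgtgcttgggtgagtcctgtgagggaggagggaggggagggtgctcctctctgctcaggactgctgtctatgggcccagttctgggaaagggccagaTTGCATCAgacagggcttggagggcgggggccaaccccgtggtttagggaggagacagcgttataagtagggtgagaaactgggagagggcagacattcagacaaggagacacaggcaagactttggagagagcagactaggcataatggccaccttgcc
Trib3: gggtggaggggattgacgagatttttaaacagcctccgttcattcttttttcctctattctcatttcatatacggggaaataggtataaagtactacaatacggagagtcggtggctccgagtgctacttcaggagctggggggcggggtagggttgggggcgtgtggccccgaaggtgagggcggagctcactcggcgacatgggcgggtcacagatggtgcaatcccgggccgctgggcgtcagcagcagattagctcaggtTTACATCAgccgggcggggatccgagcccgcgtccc
Chac1: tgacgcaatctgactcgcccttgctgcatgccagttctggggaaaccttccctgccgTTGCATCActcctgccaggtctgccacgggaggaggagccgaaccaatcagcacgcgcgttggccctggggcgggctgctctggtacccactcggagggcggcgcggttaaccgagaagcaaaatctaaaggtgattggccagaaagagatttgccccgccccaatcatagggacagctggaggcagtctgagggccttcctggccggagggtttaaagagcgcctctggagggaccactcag
Slc7a11: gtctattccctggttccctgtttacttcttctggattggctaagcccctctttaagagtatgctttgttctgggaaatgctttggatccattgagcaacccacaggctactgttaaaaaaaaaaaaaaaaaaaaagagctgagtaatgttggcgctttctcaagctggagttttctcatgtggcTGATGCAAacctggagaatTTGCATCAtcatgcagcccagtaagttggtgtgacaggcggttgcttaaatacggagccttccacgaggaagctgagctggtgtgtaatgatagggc

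Since replicate 4 was set apart for this response, its values are a description. Nupr1, a stress-induced nuclear protein gene whose promoter is shown above, was at 0.321, 0.319, 0.73, 20.5 and 0.732 CPM in HCmel12 replicates 1 to 5. Trib3, which encodes a pseudokinase that feeds back on ATF4, was at 2.89, 2.03, 2.92, 65.4 and 6.59 CPM, and Chac1, which encodes a glutathione-degrading enzyme, at 1.85, 1.75, 1.46, 14.8 and 1.67 CPM. Replicate 4 was the highest library in each case and lay well outside the range of the other 4. The neutral amino acid transporter gene Slc1a4 (50.0 CPM, 7.97 to 11.0 CPM in the other 4), Ddit3, which encodes CHOP (69.1 CPM, 13.3 to 22.8 CPM), and the proline synthesis gene Pycr1 (13.3 CPM, 2.46 to 4.38 CPM) had the same pattern. So did the mitochondrial genes Pck2 (91.1 CPM, 20.8 to 33.1 CPM) and Gpt2 (61.3 CPM, 15.7 to 20.2 CPM). Slc7a11, the cystine transporter gene with the motif on both strands, was at 1.61, 1.65, 2.37, 9.61 and 3.95 CPM.

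Of 54 tested members of the ATF4 list, 51 were higher in replicate 4 than in any other HCmel12 library and none was lower (over all tested genes 4688 were higher and 4569 lower), and 19 were at least 2-fold higher than the mean of the other 4, with a median difference of 0.80. In all, 309 genes were at least 2-fold higher and outside that range and 55 lower, whereas the other HCmel12 replicates had 12 to 31 higher and 16 to 56 lower. Interferon genes were higher in 43 of 58 and lower in 6, and melanocyte genes higher in 25 of 33 and lower in none. Of these, 21 interferon genes and 9 melanocyte genes were at least 2-fold higher, with list medians of 0.69 and 0.46. In contrast, 27 of 42 replication and mitosis genes and 16 of 20 endoplasmic reticulum chaperone genes were lower in replicate 4. The labels give no culture date or medium of its own for this library.

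The response in replicate 4 bears on how the ATF4 list compares with the other lines. With all libraries 4 members were above and 4 below (7.41% each), and without replicate 4 these were 3 and 7. Above were Cbs, the first enzyme of transsulfuration, at 4.90 to 6.36 CPM and 5.04-fold above RET, and Slc7a1, the cationic amino acid transporter gene, at 614, 620, 683, 796 and 627 CPM and 2.25-fold above RET. Slc7a1 lies in a run of 5 neighbouring genes above each line, in the window of 140 to 150 Mb of chromosome 5, where 69.8% of the tested genes were above. The window's medians were 1.30, 1.30, 1.25 and 1.25 against D4M, RET, B16F10 luc2 and WT31, and the differences of Slc7a1 were 2.34, 1.175, 1.349 and 1.535. Cebpb (least difference 0.58) and Yars (0.16, not called without replicate 4) were above as well. Below were Sesn2 (least difference -1.02), Slc38a2 (-0.39), Ddit4, an inhibitor of mTORC1 (3.41-fold below B16F10 luc2, 5.50-fold without replicate 4), and Slc7a11 (2.41-fold below RET, limma adjusted p = 0.0144; 3.86-fold without replicate 4), whose replicates 4 and 5 overlapped RET (3.84 to 19.9 CPM). The call of Slc7a11 was lost in 4 of 37 alternatives: an adjusted p under 0.01, no filter, log2(TPM + 1) with no filter, and without RET replicate 2 (least difference -1.07). Gpt2, Pycr1 and Slc1a4 passed the test only without replicate 4, with least differences of -0.41, -0.64 and -0.70 (limma adjusted p = 0.00797, 0.00131 and 0.0028 in the weakest comparison). With all libraries these differences were -0.05, -0.22 and -0.22. The stated additions to the HCmel12 medium were nonessential amino acids, L-glutamine, sodium pyruvate, Hepes and β-mercaptoethanol, and glutamine was also a stated addition for D4M. The part of the media in these levels was not tested.

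**Figure D5:**
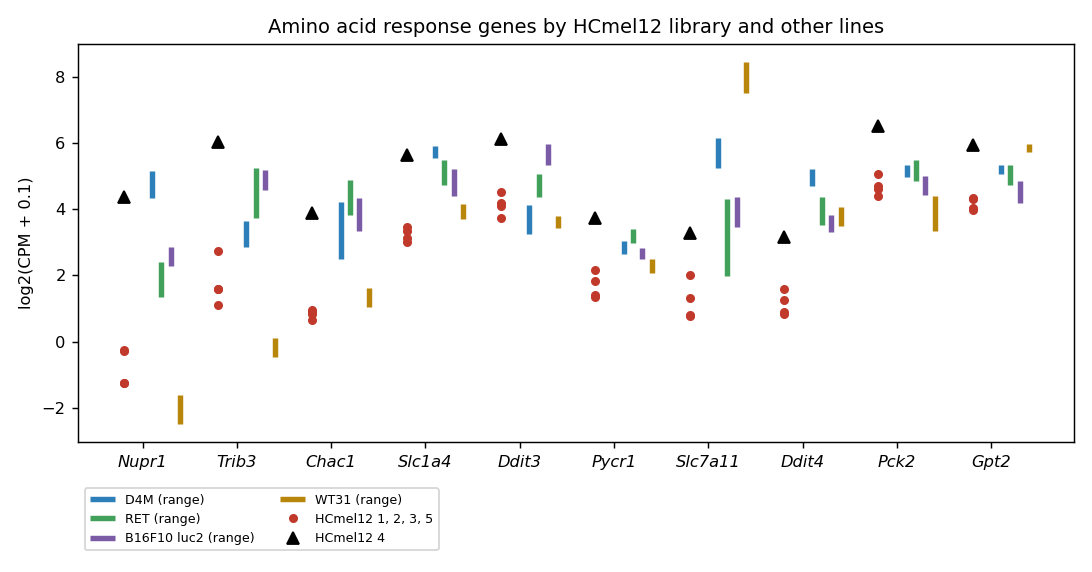
CPM on a log2 scale with 0.1 added (vertical axis) of the 10 ATF4 list genes (horizontal axis) with the highest level in HCmel12 replicate 4 relative to the other HCmel12 libraries, with a triangle for replicate 4, points for the other 4 HCmel12 libraries and vertical bars for the range of each other line. Replicate 4 is the highest HCmel12 library for all 10 genes, for example at 20.5 CPM against 0.319 to 0.732 CPM for Nupr1.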

How the data were processed

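RNA-seq of 25 cultures of 5 murine melanoma lines was analysed. The authors trimmed reads with Trim Galore 0.6.4, assigned them to GRCm38.p6 with kallisto and deposited estimated counts per gene, of which 24.5% to 26.6% per library were not whole, and TPM; the TPM of D4M replicate 1 were not used here. No column of another series was found. Counts were filtered with filterByExpr (edgeR 4.0.16, line as group), scaled with TMM and fitted with voom and limma 3.58.1 (R 4.3.3), with a mean per line over all 25 libraries. Voom and limma are the tools of the study's methods, while the filter and TMM were chosen here. p-values were adjusted per comparison over 15247 genes (Benjamini-Hochberg, 0.05). A gene was called above or below if all 4 comparisons passed with the same sign. For a line with no library over 3 counts, folds were taken against 3 counts per library. Symbols matched for 55144 of 55385 genes, and positions are from GENCODE M21 (GRCm38). Members and lists were chosen with earlier results of these data known. Named were the 15 genes with the largest least difference in each direction, up to 4 called members per list, model and allele genes and the 10 ATF4 genes furthest off in replicate 4; other members are named with their least difference, chosen after their values were seen. A few items that this rule names are not reported here. On simulated counts (14624 genes tested) voom recovered 50 of 50 genes changed by 2 and by 1 on the log2 scale, 50 of 50 by -2 and 48 of 50 by -1, with 0 false calls. There the other lines shared a single mean per gene and all genes the same dispersion, and genes with low mean counts were not changed. The real lines differ widely from each other, and a call needs all 4 comparisons. The simulation therefore checks the code and gives no rate of false calls for these data. Alternatives were library size or DESeq2 1.42.0 size factors, edgeR's quasi-likelihood and DESeq2's Wald tests on rounded counts, other filters, log2(TPM + 1) and log2(TPM + 0.1) with limma, an adjusted p under 0.01, fits of 2 lines, a replicate block and leaving out each library. The windows of 10 Mb were added after the data were seen.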

Additional observations from a re-analysis of the deposited data

Results flagged for a closer look

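For each named gene with over 3 counts in any HCmel12 library, the library with the highest or lowest CPM was compared with the others by the size of its gap to the nearest. Of 114 such groups, 21 had a library far from the other 4, and replicate 4 was the highest library in 18. Chance flags about 1 in 20 groups, but the count cannot be read against it: the 10 ATF4 genes were named for their distance in replicate 4, and genes of a library share its state. Replicate 4 stood high for the ATF4 genes Nupr1 (20.52 CPM), Trib3 (65.42), Chac1 (14.82), Slc1a4 (50.04), Ddit3 (69.06), Pck2 (91.14), Gpt2 (61.3), Pycr1 (13.32) and Ddit4 (8.804). It also stood high for Cdh1 (15.18 CPM), the guidance gene Sema6d (28.88), the imprinted gene Sgce (159.3), the Notch ligand gene Jag2 (8.117), the interferon gene Samd9l (8.441), the respiratory chain gene Cox7c (261.2) and, at low levels, Col5a3 (2.262), Morn4 (0.2827) and Adamts9 (0.3231). For Samd9l, Sema6d, Col5a3, Morn4, Adamts9 and Ddit4 the HCmel12 level was below each other line all the same. Replicate 5 was highest for Ndufv1 (129.8 CPM, 116.8 to 120.1 in the others) and lowest for Itgb4 (0.5288 CPM, 1.01 to 1.116 in the others). Replicate 3 was lowest for the phosphofructokinase gene Pfkl (185.5 CPM, 214 to 220.4 in the others).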

How the results depend on the processing

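The counts concern genes above each of the 4 other lines, genes below each of the 4 other lines, genes at least 2-fold above each of the 4 other lines and genes at least 2-fold below each of the 4 other lines, and most stayed within 1.5 times of those in the report. With at least 10 counts in every library, 914 genes were above, 177 were at least 2-fold above and 96 at least 2-fold below. With log2(TPM + 1) the 2-fold counts were 383 above and 97 below, and without a filter 398 and 97; a pseudocount of 1 reduces the folds of low genes. Leaving out single libraries gave 1404 to 1506 genes above, 984 to 1051 below, 590 to 611 at least 2-fold above and 252 to 266 at least 2-fold below. With the replicate number as a block the counts were 1419, 1081, 601 and 281. Samples of different lines with the same number did not visibly deviate together (correlations of -0.0909 to 0.104, against -0.1215 to 0.1299 for different numbers). Of 25 libraries, 6 correlated best with their own number. No pairing by number was thus seen, and a small shared effect would not be detected in this way. Of 117 named genes that were called, 98 kept call and direction in every alternative that gave them a value, and none was reversed; with at least 10 counts in every library only 45 of the 117 were tested. Scaling by library size alone moved the median difference from D4M to 0.17, and those from the other lines stayed between -0.05 and 0.02. The 7 windows kept their counts within 1.5 times in every alternative. Of the counts of the gene lists under the alternatives, 156 were classed as moved and 2286 as the same. Genes with at most 3 counts give bounds only, 5 cultures per line limit the precision of small differences, and line, genotype and medium cannot be told apart.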

Other observations

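Foxa2 (at least 5.57-fold above D4M) and Foxa1 (least difference 1.59), which encode pioneer factors of endoderm, were above each line and were chosen after their values were seen, as were the immediate early gene Fos (2.61) and the orphan receptor gene Nr4a3 (1.81).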
